A study of Mus musculus with 16 samples.

Results

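Lungs of mice without the very low density lipoprotein receptor (VLDLR) were compared with wild-type lungs in the absence of allergen. The comparison set 4 arrays of Vldlr knockout (KO) mice given saline against 4 arrays of wild-type (WT) mice given saline, which are 8 of the 16 arrays of the study, chosen by their titles and not by any measured value. It covered 19938 genes. The other 8 arrays, 4 per genotype, came from mice given extract of house dust mite (HDM), which is an allergen of inhaled dust, and gave a second comparison of the genotypes, on other arrays but with 1 spread per gene estimated over all 16. Both genotypes received their dose through the nose in 10 µl, on 5 days a week for 6 weeks, with 25 µg of HDM or with saline alone. WT mice were of the hybrid strain B6129SF2/J. The labels name no strain for the Vldlr-/- mice, and they give no sex, age, site of the disruption or number of animals behind an array. A difference of strain or colony and the loss of Vldlr therefore cannot be told apart in any value below. The arrays of a group are labelled as biological replicates, and p-values reflect how far these arrays vary within a group.

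VLDLR is a membrane receptor of the LDL receptor family that binds lipoproteins carrying apolipoprotein E, helps lipoprotein lipase deliver fatty acids to tissues, and takes up protease and inhibitor complexes. With its relative Lrp8 it also passes the reelin signal into cells through the adaptor Dab1. It is well expressed in heart, muscle, adipose tissue and endothelium, where its known role is the handling of triglyceride-rich particles.

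Levels are on the log2 scale of the deposited values, and a difference is the mean of the KO arrays minus that of the WT arrays, so that 1 means 2-fold. On the 8 saline arrays, medians lay between 8.78 and 8.85 and pairwise correlations between 0.9919 and 0.9972. On the axis of greatest variance among them (principal component 1, 31.4% of the total) KO saline 3 and 4 lay at 16.34 and 13.47, apart from the other 6 arrays (-10.47 to 0.57), and results are given without them where they matter. WT saline 2 and 3 also stood apart, in some genes of allergic inflammation described below. The tissue label matched the markers: Sftpc, the surfactant protein of alveolar type 2 cells, stood at 13.99 ± 0.04 (SD, n = 4) on WT and 14.05 ± 0.03 on KO arrays, and Ager, a membrane receptor of alveolar type 1 cells, at 13.00 ± 0.06 and 12.98 ± 0.08.

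Vldlr itself was lower in the KO lungs. In WT lungs under saline, arrays 1 to 4 read 10.54, 10.50, 10.59 and 10.75, and in KO lungs 9.88, 9.77, 9.90 and 9.79. Every KO array lay below every WT array, but well above the low end of the scale. The difference was -0.76 (SE 0.12, 95% confidence interval -1.0 to -0.52, limma adjusted p = 0.00697), and it stayed between -0.79 and -0.71 when any 1 of the 8 arrays was left out. Without KO saline 3 and 4 it was -0.77 (adjusted p = 0.135), and without WT saline 2 and 3 it was -0.81 (adjusted p = 0.0551). The sources used here do not give where the probes lie relative to the disrupted part, so the remaining signal cannot be read as remaining receptor.

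The rest of the LDL receptor family differed little. Of 17 measured members Vldlr alone passed the test (0.231% of all genes did), and the median difference was 0.0013, against -0.0065 over all genes. The largest difference in the other direction was that of Lrp2 (megalin), an endocytic receptor of epithelia, which stood at 10.998, 10.84, 10.85 and 10.69 on the WT arrays and 11.11, 11.20, 11.30 and 11.31 on the KO arrays. Its groups did not overlap, and its difference of 0.39 (SE 0.08, adjusted p = 0.0579) just missed the threshold. Lrp8, the reelin receptor closest to VLDLR, differed by -0.03 (95% confidence interval -0.17 to 0.11), and Lrp1, a large scavenger receptor, by 0.03 (95% confidence interval -0.10 to 0.16). These intervals exclude a change of Lrp8 or Lrp1 as large as that of Lrp2.

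None of the 18 measured ligands and signalling partners of VLDLR passed the test. Apoe, the lipoprotein ligand, stood at 12.09 ± 0.19 (SD, n = 4) on WT and 12.14 ± 0.10 on KO arrays, a difference of 0.05 (95% confidence interval -0.12 to 0.23). Lpl, lipoprotein lipase, was at 10.66, 10.71, 10.66 and 10.59 on WT and 10.75, 10.98, 11.04 and 11.14 on KO arrays, a difference of 0.33 (SE 0.11, adjusted p = 0.331). Cd36, the fatty acid transporter that is abundant in lung capillaries, differed by -0.18 (SE 0.05, adjusted p = 0.249), from 13.29 ± 0.01 to 13.11 ± 0.04, with no overlap. In fatty acid uptake 3 of 23 genes were higher and 2 lower at an unadjusted p under 0.05, where 3.61% of all genes were higher and 4.2% lower at that level. Among 20 genes of the cholesterol synthesis list the smallest p was that of Stard4, a sterol carrier, at a difference of 0.22 (SE 0.05, adjusted p = 0.108). Of 21 LXR targets and fatty acid synthesis genes it was that of Acacb, an acetyl-CoA carboxylase, at -0.35 (SE 0.10, adjusted p = 0.212). None of the 116 genes measured within 10 Mb of Vldlr passed the test either, and 11 had an unadjusted p under 0.05. The smallest adjusted p among them was 0.0623, for Ppp1r3c, a glycogen-targeting subunit, at -0.36 (SE 0.08).

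Across all genes, 46 of 19938 (0.231%) differed between the genotypes under saline at an adjusted p under 0.05. Of these, 18 were higher in the KO lungs (0.0903% of all genes) and 28 lower (0.14%). All 46 had groups without overlap, as did 6.54% of all genes (3.16% higher and 3.38% lower). The changes were small, with a median size of 0.57 (1.48-fold), and 9 were at least 2-fold, 3 of them higher and 6 lower. An unadjusted p under 0.05 was reached by 1558 genes (7.81%). All but 4 of the called genes lay outside the 54 pathway and cell type lists examined. Those lists held only 858 of the 19938 genes, so most genes of any kind lie outside them. The exceptions were Vldlr, Rnase2a, Hspa1a and Nnt. The grouping of called genes below was made after the calls, to order the account.

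**Figure D1:**
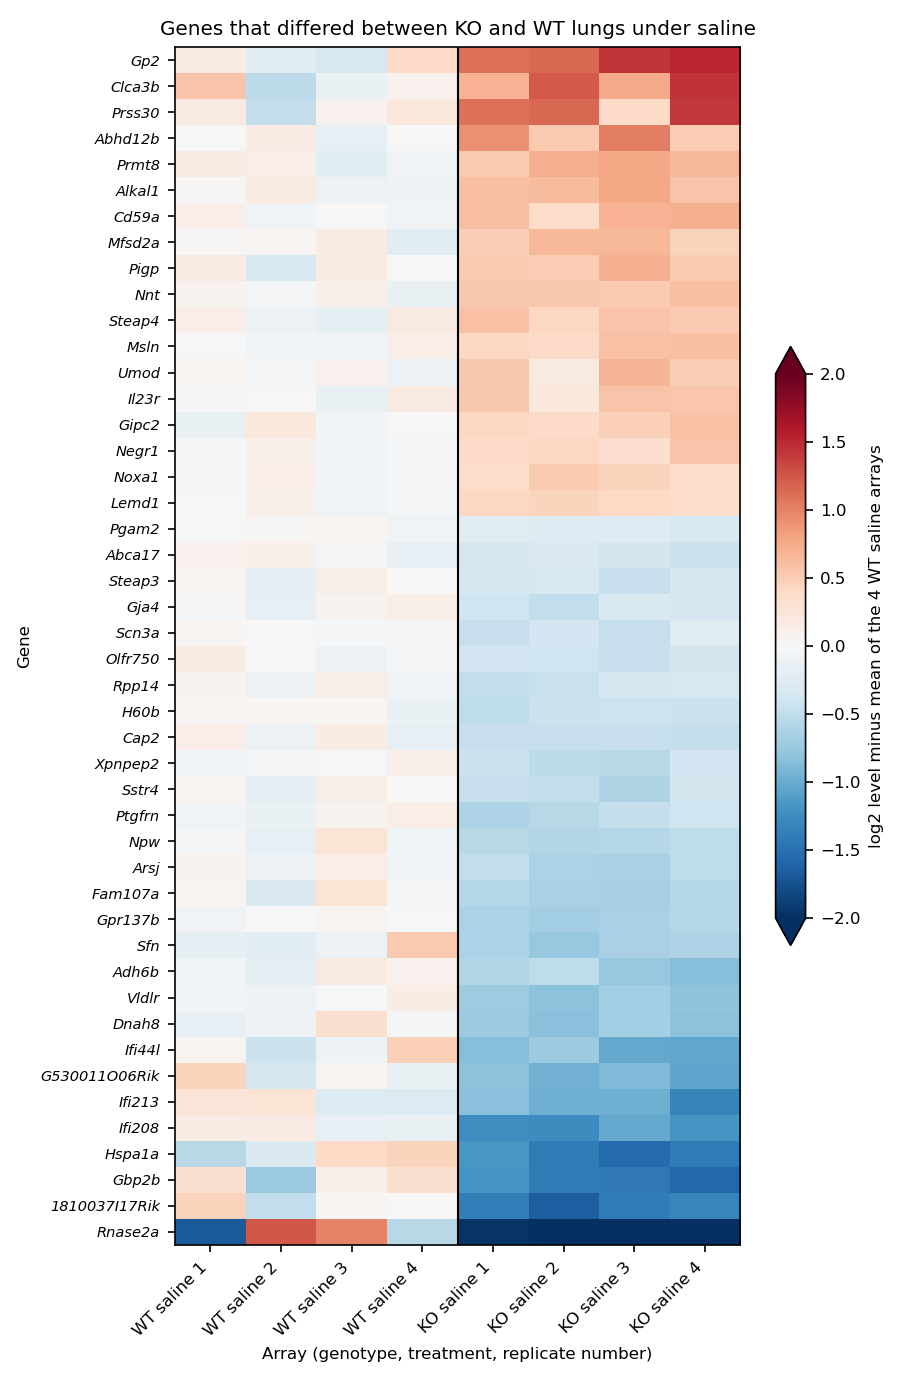
Heat map of the 46 genes that differed between KO and WT lungs under saline, with 1 row a gene and 1 column an array. Colour gives the log2 level minus the mean of the 4 WT saline arrays, and values beyond 2 in either direction share the end colours. The 18 genes at the top are higher on all 4 KO arrays and the 28 below are lower on all 4. In the bottom row, Rnase2a, WT saline 2 and 3 stand above WT saline 1 and 4.

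How many genes passed depended on single arrays. Leaving out WT array 1, 2, 3 or 4 gave 55, 38, 21 or 35 calls, and leaving out KO array 1, 2, 3 or 4 gave 14, 21, 20 or 16. Of the 46 genes, 32, 32, 20 and 30 remained without each WT array and 14, 20, 17 and 15 without each KO array. In each of the 8 fits 12 genes remained: Nnt, Alkal1, Msln, Noxa1 and Lemd1 among the higher, and Vldlr, Hspa1a, Gbp2b, Gpr137b, Ifi208, H60b and 1810037I17Rik among the lower. No difference of a called gene moved by over 1.5 times in these fits. Without both WT saline 2 and 3 the count was 10, and 8 of the 46 remained: Nnt, Alkal1, Hspa1a, Gbp2b, Ifi44l, Sfn, 1810037I17Rik and G530011O06Rik. Without both KO saline 3 and 4 the count was 2, Nnt and Prss30. The sign of all 46 held in both fits, as it must where the groups do not overlap, so it is no measure of stability. Without KO saline 3 and 4 the difference was -1.29 for Gbp2b (adjusted p = 0.108), -1.28 for Hspa1a (adjusted p = 0.110), -1.25 for Ifi208 (adjusted p = 0.0961) and -0.66 for Gpr137b (adjusted p = 0.108). These sizes were close to those with all arrays.

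Nnt, the mitochondrial transhydrogenase that makes NADPH from NADH, had the smallest p of all genes. It stood at 10.52, 10.41, 10.55 and 10.30 on the WT saline arrays and 10.98, 10.99, 10.97 and 11.05 on the KO saline arrays. The 2 groups lay far apart relative to their spread. The difference was 0.55 (SE 0.06, 1.47-fold, adjusted p = 0.000619), and it was 0.58 between the HDM groups (SE 0.06, adjusted p = 6.43e-05). Gpr137b, a membrane protein of lysosomes, showed the same separation downward, at 10.67, 10.76, 10.80 and 10.76 in WT and 10.12, 10.05, 10.10 and 10.17 in KO lungs. It fell by 0.64 under saline (SE 0.09, adjusted p = 0.00434), and the HDM arrays gave a fall of 0.81 (-0.81, SE 0.09, adjusted p = 0.000114). Alkal1, a secreted ligand of the receptor kinases ALK and LTK, rose by 0.65 (SE 0.09, adjusted p = 0.00434), from 6.94 ± 0.14 (SD, n = 4) to 7.59 ± 0.09.

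**Figure D2:**
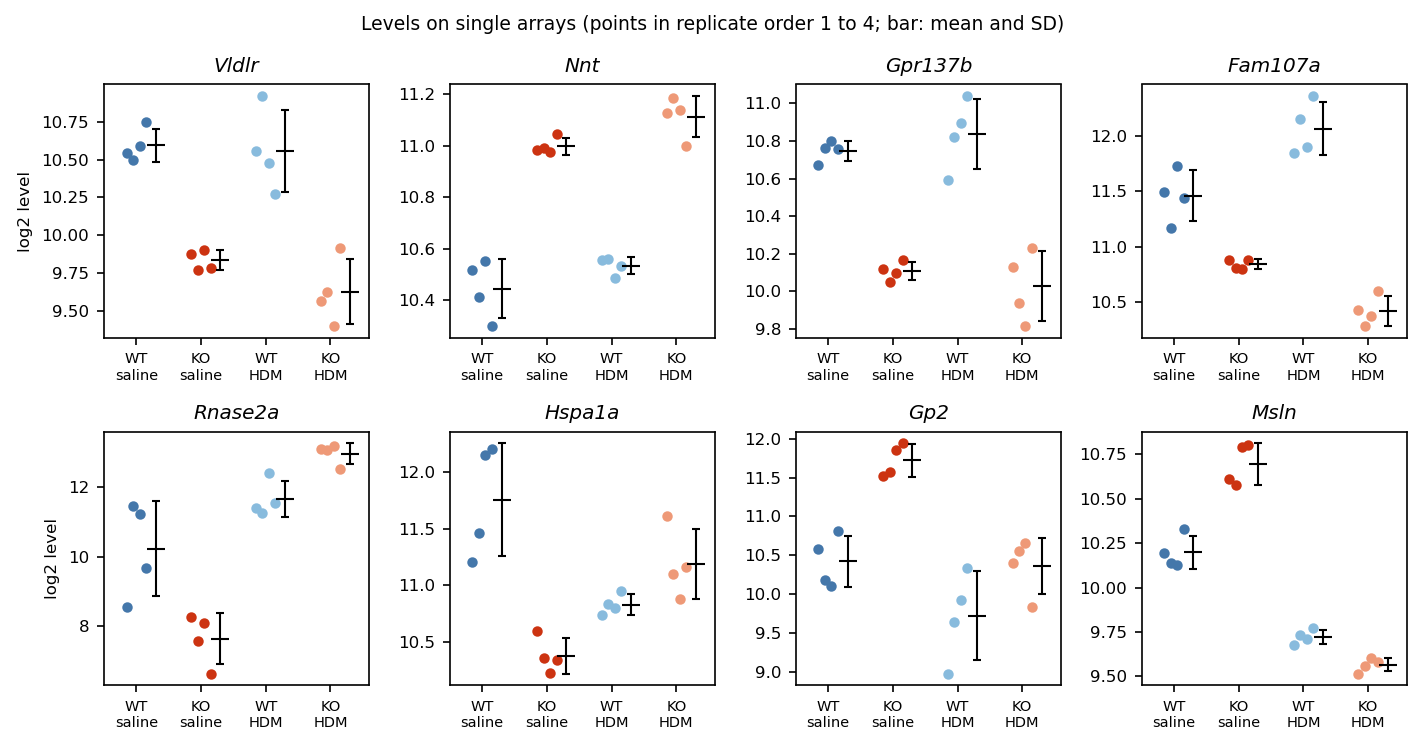
Log2 levels of 8 genes on each of the 16 arrays, in the order WT saline, KO saline, WT HDM and KO HDM, with points in replicate order and a bar for the mean and SD of each group. The axes do not start at 0 and differ between panels. Nnt and Gpr137b hold their genotype difference under both treatments, that of Fam107a is larger under HDM (-1.65 against -0.62), and Hspa1a and Rnase2a are lower in KO lungs under saline and higher in their mean under HDM.

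In the KO lungs 4 genes of interferon-induced families fell, while no gene of the interferon list passed. Ifi208 and Ifi213 are neighbouring genes of the Ifi200 family, whose proteins bind DNA, and Gbp2b encodes a guanylate-binding GTPase of the defence against intracellular microbes. Ifi208 was at 8.65, 8.67, 8.35 and 8.36 on WT arrays and 7.27, 7.25, 7.49 and 7.33 on KO arrays. Its difference was -1.17 (SE 0.16, 2.26-fold, adjusted p = 0.00428). Ifi213 was at 9.10, 9.12, 8.57 and 8.57 in WT and 8.01, 7.86, 7.87 and 7.49 in KO lungs, a difference of -1.03 (SE 0.19, adjusted p = 0.0245). Its call ended without any of the 4 KO arrays or WT saline 1 or 2, with adjusted p up to 0.106. For both genes the WT arrays fell into a higher pair, arrays 1 and 2, and a lower pair, arrays 3 and 4, and both pairs lay above all KO arrays.

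Because these neighbours moved together, their upstream sequences are shown, each 250 bases before the gene's start, 5′ to 3′ on the gene's own strand, from RefSeq on GRCm38.p6. Capitals mark a match on either strand to GAAA, any 2 bases and GAAA again, the spaced repeat of interferon response elements, or, for Hspa1a, to GAANNTTC, the inverted repeat of heat shock elements.
Ifi208 (chr1:173673415-173673664, plus strand): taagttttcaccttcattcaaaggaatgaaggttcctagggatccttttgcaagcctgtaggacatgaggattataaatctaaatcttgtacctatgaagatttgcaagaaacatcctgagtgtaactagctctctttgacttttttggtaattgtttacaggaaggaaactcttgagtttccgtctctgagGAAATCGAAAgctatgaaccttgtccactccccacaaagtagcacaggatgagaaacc
Ifi213 (chr1:173599273-173599522, minus strand): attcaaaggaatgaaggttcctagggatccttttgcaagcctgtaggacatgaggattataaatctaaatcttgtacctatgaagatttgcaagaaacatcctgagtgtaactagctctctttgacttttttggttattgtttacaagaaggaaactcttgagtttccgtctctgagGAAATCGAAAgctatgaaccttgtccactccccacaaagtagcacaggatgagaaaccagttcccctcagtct
Gbp2b (chr3:142594597-142594846, plus strand): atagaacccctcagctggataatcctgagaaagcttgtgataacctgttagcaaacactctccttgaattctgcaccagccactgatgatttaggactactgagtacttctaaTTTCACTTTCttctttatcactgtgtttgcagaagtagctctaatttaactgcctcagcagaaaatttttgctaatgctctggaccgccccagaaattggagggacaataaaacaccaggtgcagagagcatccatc
Hspa1a (chr17:34972157-34972406, minus strand): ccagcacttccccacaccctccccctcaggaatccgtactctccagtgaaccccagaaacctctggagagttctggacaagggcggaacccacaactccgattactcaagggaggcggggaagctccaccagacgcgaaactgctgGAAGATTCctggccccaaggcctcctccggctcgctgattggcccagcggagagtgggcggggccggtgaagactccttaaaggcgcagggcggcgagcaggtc
The windows of Ifi208 and Ifi213 were nearly the same sequence, identical at 233 of 235 aligned bases (99.1%). The interferon repeat was present in 5 of the 37 called genes that had a window (13.5%), Ifi208, Ifi213, Gbp2b, Cd59a and Rpp14, and in 3.4% of the 15614 measured genes with one. These 5 include a gene that rose, Cd59a, and the near copies of Ifi208 and Ifi213, so they are not independent. The heat shock repeat was also present in 5 of the 37, against 6.87% of measured genes. It lay in Hspa1a, Olfr750, Umod, Ifi208 and Ifi213, and since the windows of the last pair are near copies these are not independent. A match is a run of letters and not a shown binding site. Whether the probes separate Ifi208 from Ifi213 was not tested.

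Within the Ifi200 family the direction was mixed. Of 10 measured members with a probe set of their own, Ifi208 and Ifi213 passed. Ifi206 also lay without overlap below, at 8.02, 7.89, 7.36 and 7.78 in WT and 7.02, 7.17, 7.19 and 7.05 in KO lungs, with a difference of -0.66 (SE 0.16) that did not pass (adjusted p = 0.131). Ifi202b lay without overlap above, at 6.25 ± 0.29 (SD, n = 4) in WT and 6.94 ± 0.17 in KO lungs (0.68, SE 0.22, adjusted p = 0.322).

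Gbp2b stood at 9.86, 8.81, 9.65 and 9.86 on WT arrays and 8.37, 8.14, 8.12 and 7.98 on KO arrays. WT saline 2 was the lowest WT array and still above all KO arrays. The difference was -1.39 (SE 0.18, 2.62-fold, adjusted p = 0.00428). The 7 other guanylate-binding genes with their own probe set differed by -0.09 to 0.07, and a probe set shared by Gbp2 and Gbp2b by 0.12. Ifi44l, an interferon-induced gene, was at 8.88, 8.41, 8.73 and 9.30 in WT and 7.98, 8.10, 7.80 and 7.79 in KO lungs, a difference of -0.91 (SE 0.15, adjusted p = 0.0161). Its call ended without KO saline 1, 3 or 4 (adjusted p up to 0.0694). In the list of 23 antiviral interferon-induced genes, which holds none of these 4, no member reached even an unadjusted p under 0.05, and the median difference was 0.09.

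**Figure D3:**
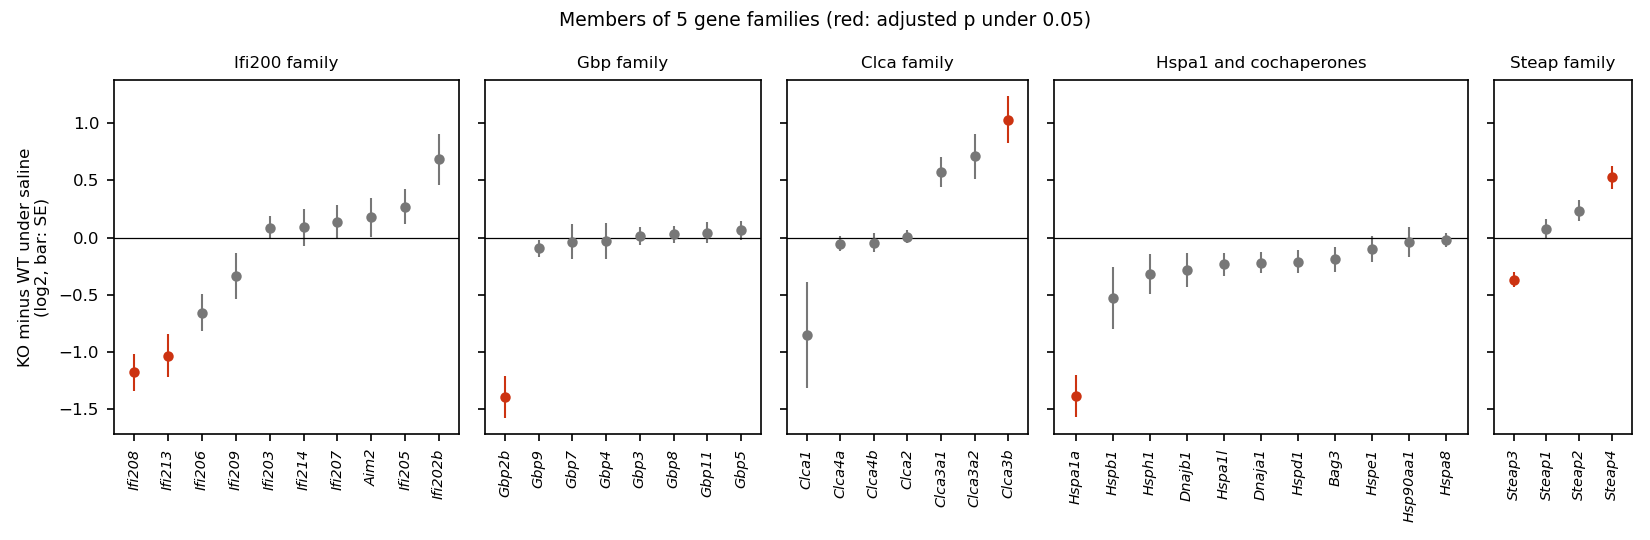
Difference between KO and WT lungs under saline for members of 5 gene families, with the SE of limma's fit as bars (4 arrays per group). Red points passed at an adjusted p under 0.05. Ifi208 and Ifi213 lie below the rest of the Ifi200 family, Gbp2b lies alone at -1.39 among guanylate-binding genes, and Steap3 and Steap4 passed in opposite directions.

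The largest rises were those of Gp2, Clca3b and Prss30. Gp2, a membrane glycoprotein known from secretory granules and from cells that sample microbes at mucosal surfaces, had the largest rise. It was at 10.58, 10.19, 10.11 and 10.81 in WT and 11.52, 11.57, 11.86 and 11.94 in KO lungs. The difference was 1.30 (SE 0.23, 2.46-fold, adjusted p = 0.0240), and its call ended without any KO array or without WT saline 2 or 3 (adjusted p up to 0.109). Its neighbour Umod encodes uromodulin, a related protein best known from kidney, and rose from 7.91 ± 0.09 (SD, n = 4) to 8.38 ± 0.21 (0.47, SE 0.09, adjusted p = 0.0393). Clca3b, a secreted protein of the calcium-activated chloride channel regulator family, rose by 1.03 (SE 0.21, adjusted p = 0.0443), from 10.54, 9.45, 9.83 and 10.06 to 10.66, 11.19, 10.73 and 11.42. The groups were close, with WT saline 1 only just below KO saline 1, and the call ended without any array but WT saline 1. Its relatives Clca3a1 and Clca3a2 were higher by 0.57 (SE 0.13, adjusted p = 0.0926) and 0.71 (SE 0.20, adjusted p = 0.201) and did not pass. Clca1 lay in the opposite direction, at -0.85 (SE 0.46, adjusted p = 0.729), and Clca2, Clca4a and Clca4b differed by -0.05 to 0.01. Prss30, a serine protease, rose by 1.01 (SE 0.18, adjusted p = 0.0204), from 9.37, 8.72, 9.29 and 9.41 to 10.30, 10.34, 9.58 and 10.62. Msln, mesothelin of the pleural surface, was tighter, at 10.20, 10.14, 10.13 and 10.33 against 10.61, 10.58, 10.79 and 10.80. It rose by 0.50 (SE 0.06, adjusted p = 0.00272).

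In the list of acute phase and complement genes none of 15 passed, but 7 were higher and none lower at an unadjusted p under 0.05, where 3.61% of all genes were higher. The list's median was 0.19, and its mean level on an array lay between 9.92 and 10.04 in KO and between 9.65 and 9.83 in WT lungs. Lbp, the lipopolysaccharide-binding protein, was at 12.19, 12.20, 12.002 and 12.18 in WT and 12.58, 12.56, 12.58 and 12.58 in KO lungs (0.43, SE 0.09, adjusted p = 0.0623). Cfb, complement factor B, differed by 0.65 (SE 0.15, adjusted p = 0.0992), and the orosomucoids Orm1 and Orm2 by 0.80 (SE 0.20, adjusted p = 0.142) and 1.15 (SE 0.29, adjusted p = 0.147). All 4 KO arrays lay above all 4 WT arrays for each of these genes. Of 15 goblet and mucus genes none passed, 4 were higher and none lower at an unadjusted p under 0.05, and 5 had negative differences. The mean level of that list overlapped between the groups, at 9.64 to 10.05 in WT and 9.83 to 9.92 in KO lungs. The largest difference on it was that of Clca1, a secreted protein of goblet cells, at 8.55, 11.91, 11.46 and 10.79 in WT and 10.38, 9.91, 9.61 and 9.41 in KO lungs. For this gene WT saline 1 lay below all KO arrays and the other WT arrays above them. Its difference was -1.56 without WT saline 1 (adjusted p = 0.00828) and 0.16 without WT saline 2 and 3 (adjusted p = 0.9998). Pigr, which carries antibodies across epithelium, was at 11.17, 11.11, 10.51 and 11.29 in WT and 11.66, 11.55, 11.69 and 11.69 in KO lungs (0.63, SE 0.14, adjusted p = 0.0835). The mucin Muc5b differed by 0.55 (SE 0.13, adjusted p = 0.129) and its folding helper Agr2 by 0.53 (SE 0.19, adjusted p = 0.416). In whole lung, more cells of a type and more RNA per cell cannot be told apart. Of 12 alveolar type 2 genes none passed and 11 had a positive difference, among them Sftpd, surfactant protein D, at 0.34 (SE 0.08, adjusted p = 0.142), and the lysosomal Lamp3 at 0.20 (SE 0.07, adjusted p = 0.357).

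The other genes that rose have varied roles. Cd59a, an inhibitor of the complement attack complex held in the membrane by a lipid anchor, rose by 0.59 (SE 0.11, adjusted p = 0.0240), from 11.26, 11.05, 11.14 and 11.06 to 11.74, 11.50, 11.82 and 11.84. Pigp, a subunit of the enzyme that begins the synthesis of such anchors, rose by 0.57 (SE 0.10, adjusted p = 0.0202), from 10.19 ± 0.23 (SD, n = 4) to 10.75 ± 0.09. A second, dimmer probe set of Pigp differed by only 0.09 (SE 0.06). Mfsd2a, the transporter of lysophosphatidylcholine that carries docosahexaenoic acid, rose by 0.57 (SE 0.10, adjusted p = 0.0232), from 10.44, 10.47, 10.56 and 10.19 to 10.90, 11.08, 11.08 and 10.88. Steap4, a metalloreductase of iron and copper, rose by 0.53 (SE 0.10, adjusted p = 0.0301), and its relative Steap3 fell by 0.37 (SE 0.07, adjusted p = 0.0240). Noxa1, the activator of the NADPH oxidase NOX1, rose by 0.43 (SE 0.06, adjusted p = 0.00697), from 8.94 ± 0.09 to 9.37 ± 0.08. The remaining rises were Abhd12b, a hydrolase, at 0.74, the arginine methyltransferase Prmt8 at 0.67, the receptor chain Il23r at 0.47, the adaptor Gipc2 at 0.46, the adhesion protein Negr1 at 0.43 and Lemd1, with a domain of nuclear envelope proteins, at 0.40. Their adjusted p lay between 0.00434 and 0.0474, and the calls of all but Lemd1 ended with some array left out.

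Rnase2a, a ribonuclease of eosinophils and macrophages, had the largest difference of all called genes and rested on how the WT arrays were spread. Its WT levels, in array order, were 8.54, 11.47, 11.22 and 9.68, against 8.26, 7.55, 8.09 and 6.63 in KO lungs. WT saline 1 lay just above the highest KO array, while WT saline 2 and 3 were far higher, and the groups did not overlap. The difference was -2.59 (SE 0.49, 6.03-fold, adjusted p = 0.0322), and without WT saline 2 and 3 it was -1.48 (adjusted p = 0.353). Leaving out WT saline 2 or 3, or any KO array, ended the call (adjusted p up to 0.151).

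The same WT arrays were high for some other genes of type 2 inflammation, named for their large differences, none of which passed. Chil4, a chitinase-like protein, was at 8.08, 10.59, 10.20 and 9.10 in WT and 8.15, 8.0, 7.99 and 7.85 in KO lungs, a difference of -1.49 (SE 0.42, adjusted p = 0.206). Mmp12, the macrophage elastase, was at 9.28, 11.59, 10.78 and 10.11 in WT and 9.35, 9.11, 9.92 and 9.28 in KO lungs (-1.02, SE 0.40, adjusted p = 0.472). Retnla, a resistin-like protein, differed by -0.54 (SE 0.21, adjusted p = 0.471), and Mcpt2, a mast cell protease, by -1.44 (SE 0.60, adjusted p = 0.540). The lists in which Chil4, Mmp12 and Mcpt2 fell furthest held both directions. Alternative macrophage activation had 8 positive and 11 negative differences, extracellular proteases and inhibitors 13 and 12, and mast and basophil genes 5 and 11. On WT saline 1 the levels of Chil4, Mmp12 and Retnla lay within or below the KO range. Of 10 eosinophil genes Rnase2a alone passed, and 7 had negative and 3 positive differences. The mean level of the list was 8.26, 8.85, 8.69 and 8.37 on the WT arrays and 8.06 to 8.30 on the KO arrays, so that only WT saline 1 lay within the KO range. Among the defining genes, Epx differed by -0.07 (SE 0.07) and Prg2 by 0.06 (SE 0.12). Of 16 type 2 cytokines and receptors none reached an unadjusted p under 0.05. Whether the lungs behind these arrays held allergic inflammation, and whether it has a part in the genotype difference, was not tested.

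Hspa1a, the stress-induced chaperone HSP70, fell by 1.38 on the log2 scale in KO lungs (SE 0.19, 2.60-fold, adjusted p = 0.00428). It stood at 11.21, 11.47, 12.15 and 12.21 on the WT arrays and 10.60, 10.35, 10.22 and 10.34 on the KO arrays. WT saline 3 and 4 were the highest arrays, and all 4 WT arrays lay above all 4 KO arrays. A probe set shared by Hspa1a and its twin Hspa1b differed by -1.34, so the 2 genes cannot be told apart here. Of 21 heat shock and unfolded protein genes Hspa1a alone passed. At an unadjusted p under 0.05, 3 including it were lower and none higher, where 4.2% of all genes were lower and 3.61% higher. The list's median was -0.10. The small chaperone Hspb1 was at 10.75, 11.57, 11.84 and 11.87 in WT and 10.995, 11.31, 10.73 and 10.89 in KO lungs (-0.53, SE 0.27, adjusted p = 0.697). Hsph1, a partner of HSP70, differed by -0.32 (SE 0.17, adjusted p = 0.731). For both of these genes WT saline 1 was within or below the KO range and the other WT arrays were higher.

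Enzymes of glutathione and antioxidant defence showed a like pattern. Apart from Nnt, none of the 29 listed genes passed, 7 were lower and 1 higher at an unadjusted p under 0.05, where 4.2% of all genes were lower and 3.61% higher, and the list's median was -0.07. Its mean level overlapped, at 10.69 to 10.89 in WT and 10.67 to 10.76 in KO lungs. Gclc, the catalytic subunit that limits glutathione synthesis, was at 11.93, 12.48, 12.83 and 12.83 in WT and 11.91, 11.82, 11.86 and 11.86 in KO lungs (-0.66, SE 0.16, adjusted p = 0.131). Hmox1, heme oxygenase, was at 9.55, 10.08, 10.78 and 10.63 in WT and 9.41, 9.39, 9.57 and 9.65 in KO lungs (-0.75, SE 0.21, adjusted p = 0.193). As with Hspb1 and Hsph1, though not Hspa1a, WT saline 1 was close to the KO arrays for Gclc and Hmox1. WT saline 3 and 4 stood highest.

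Other genes that fell span several roles. Sfn, the epithelial 14-3-3 sigma protein, fell by 0.66 (SE 0.12, adjusted p = 0.0245), with WT saline 4 at 10.10 above the other WT arrays (9.35 to 9.46) and the KO arrays at 8.83 to 8.97. A second probe set of Sfn differed by -0.46 (SE 0.12). Dnah8, a dynein of motile axonemes, fell by 0.77 (SE 0.13, adjusted p = 0.0194), from 8.98 ± 0.22 (SD, n = 4) to 8.22 ± 0.08. Fam107a, an actin-binding gene known to respond to stress hormones, fell by 0.62 (SE 0.11, adjusted p = 0.0245), from 11.50, 11.17, 11.73 and 11.44 to 10.88, 10.81, 10.80 and 10.88. Its neighbour Rpp14, a subunit of ribonuclease P, fell by 0.40 (SE 0.07, adjusted p = 0.0240). H60b, a ligand of the NK cell receptor NKG2D, was at 7.28, 7.27, 7.27 and 7.10 in WT and 6.73, 6.80, 6.82 and 6.80 in KO lungs, and fell by 0.44 (SE 0.06, adjusted p = 0.00428). Raet1d, another ligand of that receptor, lay in the opposite direction without passing (0.34, SE 0.13, adjusted p = 0.433).

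Most of the remaining falls were smaller. Gja4, a gap junction protein of arterial endothelium, fell by 0.38 (SE 0.07, adjusted p = 0.0202), from 10.11 ± 0.13 (SD, n = 4) to 9.73 ± 0.08. Npw, a neuropeptide precursor, fell by 0.55 and its neighbour Abca17, a lipid transporter, by 0.35, while Prss30 in the same stretch rose. Sstr4, a somatostatin receptor, fell by 0.48, Ptgfrn, a partner of tetraspanins, by 0.51, and Xpnpep2, an aminopeptidase that degrades bradykinin, by 0.47. Adh6b, an alcohol dehydrogenase, fell by 0.67, and its second probe set differed by -0.08 (SE 0.08). Arsj, an arylsulfatase, fell by 0.57, and Scn3a, a sodium channel, by 0.38. The unnamed transcripts 1810037I17Rik (-1.43) and G530011O06Rik (-0.93) and the olfactory receptor Olfr750 (-0.40), a neighbour of Rnase2a, complete the list and were added after their values were seen. Of these 12 genes, 1810037I17Rik was the only one called with every single array left out. In all, 13 called genes had another called gene within 1 Mb, in 8 pairs, and the members of 5 pairs moved the same way. How often genes at large lie so close was not computed, so no clustering is read from these counts.

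Pgam2, the muscle form of phosphoglycerate mutase, and Cap2, an actin regulator of striated muscle, fell by 0.26 (SE 0.05, adjusted p = 0.0408) and 0.47 (SE 0.09, adjusted p = 0.0421). Heart muscle genes were lower beside them. Of 14 measured cardiac muscle genes none passed, but 11 were lower and none higher at an unadjusted p under 0.05, where 4.2% of all genes were lower, and the median was -0.43. Their mean level lay at 10.19, 9.97, 10.14 and 10.28 on the WT arrays and 9.76, 9.87, 9.60 and 9.88 on the KO arrays, without overlap. Tnnt2, cardiac troponin T, was at 11.39, 11.41, 11.37 and 11.85 in WT and 10.80, 11.05, 10.77 and 11.23 in KO lungs (-0.54, SE 0.16, adjusted p = 0.249). Myh6, the atrial myosin chain, differed by -0.50 (SE 0.15, adjusted p = 0.274) and Pln, phospholamban, by -0.67 (SE 0.20, adjusted p = 0.243). Pulmonary veins of the mouse carry heart muscle in their walls, and how much of it each sample held was not tested. All 12 smooth muscle and pericyte genes and all 12 skeletal muscle genes were also lower in their means, with medians of -0.13 and -0.04 and no call.

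The group means under HDM come from other arrays, but the SE and p of both comparisons rest on the spread over all 16. There 2327 genes (11.7%) differed between the genotypes, 1164 higher (5.84%) and 1163 lower (5.83%). That count was 390 in a fit of the 8 HDM arrays alone. Leaving out KO HDM array 1, 2, 3 or 4 gave 968, 1416, 1119 or 3831 calls, and leaving out WT HDM array 2 or 4 gave 1249 or 1475. Of the 46 genes called under saline, 20 were called with the same sign under HDM, which is 43.5% of the saline calls and 0.859% of the HDM calls, and 0 were called with the opposite sign. The number shared was 11 without WT saline 3, 8, 11, 10 and 9 without KO saline 1, 2, 3 and 4, 7 without WT saline 2 and 3, and 1 without KO saline 3 and 4. The shared genes were 16 of the 28 that fell (57.1%) and 4 of the 18 that rose (22.2%), namely Nnt, Alkal1, Pigp and Steap4. In sign alone 35 of the 46 matched, where 52.5% of all genes did. The shared falls included Vldlr, Gpr137b, Ifi208, Gbp2b, Ifi44l, Fam107a, Rpp14, H60b, Npw, Abca17, Ptgfrn and Xpnpep2. Fam107a had the smallest p of the HDM comparison, at -1.65 (SE 0.11, adjusted p = 7.84e-07).

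For 9 of the 46 genes the genotype difference itself differed between the treatments, by the interaction term of the fit (160 of all genes, 0.802%). That term contains the saline difference by which the 46 were chosen, so their count cannot be weighed against the share of all genes. Hspa1a was -1.38 under saline and 0.36 under HDM, a change of 1.74 (SE 0.26, adjusted p = 0.00775). Rnase2a was -2.59 and 1.31 (3.90, SE 0.70, adjusted p = 0.0182), with KO arrays lowest of all under saline and highest of all under HDM. Msln was 0.50 and -0.16 (-0.66, SE 0.09, adjusted p = 0.00371), and its groups did not overlap under either treatment. The rises of Clca3b, Abhd12b, Mfsd2a and Noxa1 were likewise -0.26, -0.16, -0.10 and -0.07 under HDM. G530011O06Rik was -0.93 under saline and 0.41 under HDM. Fam107a was the exception that kept its sign and grew (-0.62 to -1.65, change -1.03, SE 0.16, adjusted p = 0.00988). For the other 37 genes a difference between the treatments was not shown, Gp2 among them (1.30 and 0.64, change -0.66, SE 0.33, adjusted p = 0.349).

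**Figure D4:**
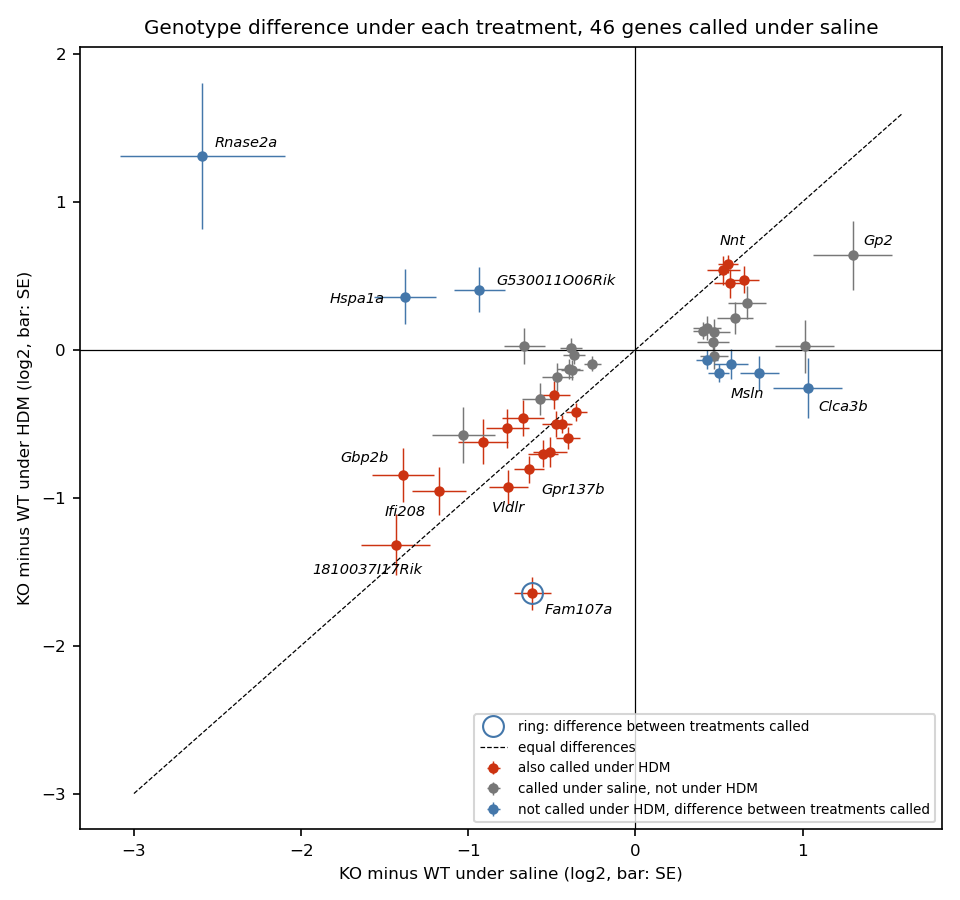
Genotype difference (KO minus WT, log2) under saline on the x axis and under HDM on the y axis for the 46 genes called under saline, with SE bars (4 arrays per group and treatment). Red genes were also called under HDM, and blue points and the ring mark genes whose difference changed between treatments. Most red points lie near the dashed line of equal differences, in the lower left, while Rnase2a, Hspa1a and G530011O06Rik lie above 0 under HDM.

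Most pathways and cell types held no called gene. Of 54 lists with 858 measured genes 50 had none, among them T, B, plasma and NK cells, neutrophils, club, ciliated and endothelial cells, MHC genes, chemokines, cytokines, the clock and the respiratory chain. Since only 0.231% of all genes were called, most lists of such size would hold none, and an empty list is not read as a result. A list without a call could still lean to 1 side. Endothelial means lay at 11.50 to 11.57 in WT and 11.39 to 11.48 in KO lungs, without overlap. Ciliated means lay at 9.816 to 9.902 and 9.903 to 10.077, barely apart. All 10 MHC class II genes had positive differences, with overlapping list means. Within dendritic cell genes 5 of 18 were higher and none lower at an unadjusted p under 0.05, where 3.61% of all genes were higher, and 5 had negative differences. The mean level of the list overlapped, at 9.28 to 9.65 in WT and 9.59 to 9.74 in KO lungs. Flt3, a growth factor receptor of these cells, differed by 0.29 (SE 0.07, adjusted p = 0.156), and the T cell attractant Ccl17 by 0.63 (SE 0.18, adjusted p = 0.236), from 10.10 ± 0.43 (SD, n = 4) to 10.73 ± 0.14. Cd209a, a lectin of dendritic cells, was at 8.17 on WT saline 1 and 10.79 to 11.60 on the other WT arrays, against 11.47 to 11.65 on the KO arrays, so its difference of 1.12 (SE 0.47, adjusted p = 0.544) came with 1 low array. The antiviral genes Trim30d and Trim12a were split within the WT group, at 6.60, 6.42, 9.42 and 9.22 and at 6.60, 6.45, 9.63 and 8.86 on WT saline 1 to 4, while all KO arrays lay between 6.53 and 6.86. Of 25 proliferation genes 23 had positive differences with a median of 0.19, and none passed. The mean level of that list overlapped between the groups, and the lean was largest on KO saline 3 and 4. It lay at 9.085 to 9.3025 on the WT arrays and at 9.3185, 9.0986, 9.6138 and 9.497 on KO saline 1 to 4. KO saline 1 was thus just above the WT range and KO saline 2 within it.

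**Figure D5:**
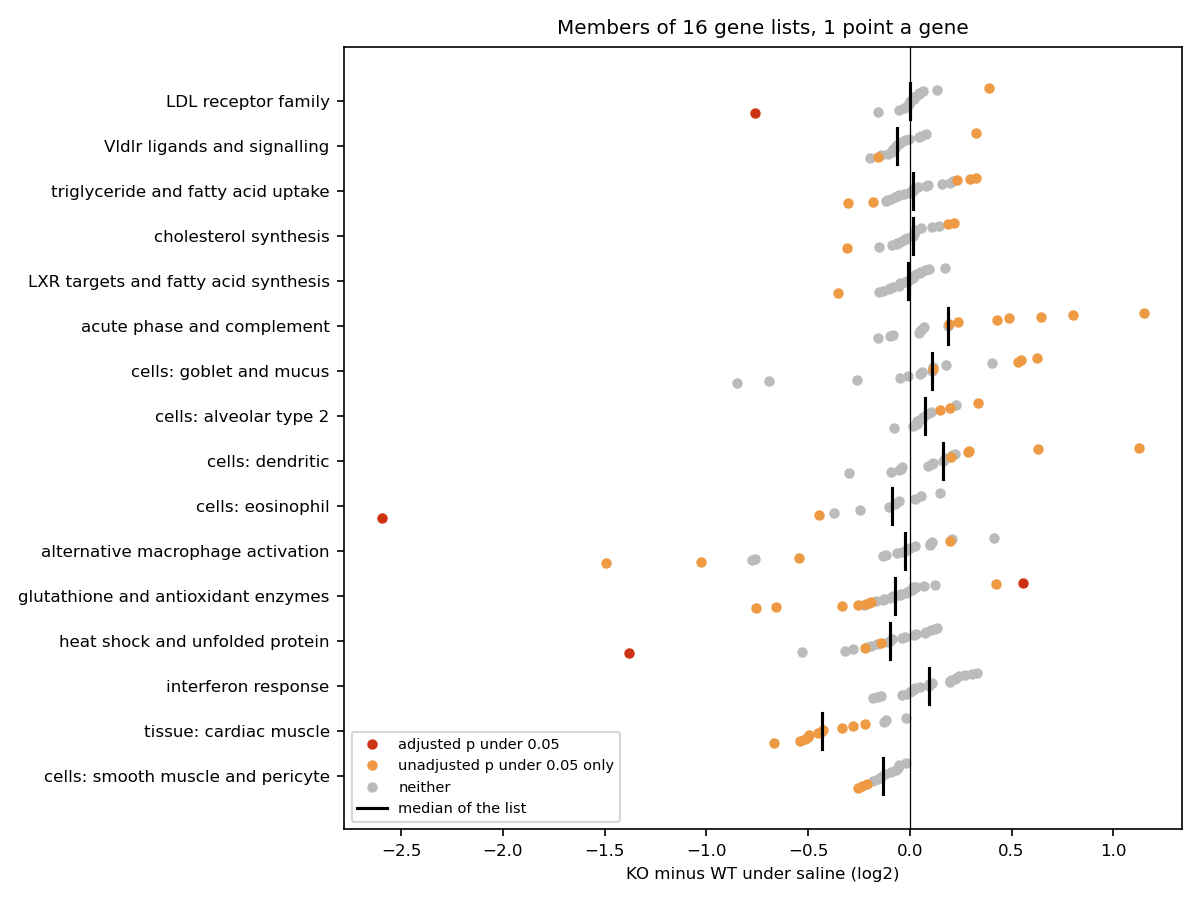
Difference between KO and WT lungs under saline (log2) for each measured gene of 16 lists, with 1 point a gene and a black bar for the list's median. Red points passed at an adjusted p under 0.05 and orange points only at an unadjusted p. The cardiac muscle list has the lowest median (-0.43), and acute phase and complement genes lean above 0 (0.19). Red points mark Vldlr, Rnase2a, Hspa1a and Nnt.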

How the data were processed

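For 16 samples (4 per genotype and treatment), lung RNA was labelled from 50 ng of total RNA, per the labels' protocols, and hybridised to Affymetrix arrays. The authors deposited log2 expression values per probe set, for which the submitters' processing notes name RMA and Affymetrix Expression Console, without versions. RMA removes background, equalises the distribution of values between arrays and sums probes into probe sets, so levels of different genes are not comparable. Of 35556 probe sets, 21789 carried 1 gene symbol, 1621 several and 12146 none in the platform annotation. Each of 19938 genes was read from its probe set of highest average signal.

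Group means were fitted over all 16 arrays with limma 3.58.1 in R 4.3.3, without covariates (12 residual degrees of freedom). Tests were two-sided, with Benjamini-Hochberg adjustment over all genes and calls at an adjusted p under 0.05. SE is that of the fit, and SD the spread of a group's 4 arrays, whose number limits the precision. The script was tested on simulated data. Alternatives covered normalization, dim genes, variance estimation, array weights, the arrays fitted, probe sets, a replicate block and arrays left out. The members and lists were chosen with earlier results of these data known. Named genes are Vldlr, the largest non-overlapping called rises and falls, genes called under both treatments, the strongest differences between treatments and up to 5 members of each list by size or p. Further uncalled members, among them Ifi206, Ifi202b, Raet1d, Trim30d, Trim12a, Cd209a, Epx and Prg2, were named after their values were seen. Promoter windows come from RefSeq on GRCm38.p6, matched by symbol.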

Additional observations from a re-analysis of the deposited data

Results flagged for a closer look

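Among 176 groups of 4 arrays examined for the named genes, 10 had 1 array whose gap to its neighbour was larger, as a share of the group's range, than the 95% critical value of Dixon's test, and chance gives about 1 in 20. In WT lungs these were H60b on array 4 (7.10, the others 7.27 to 7.28), Lbp on array 3 (12.002, the others 12.18 to 12.20), Sfn on array 4 (10.10, the others 9.35 to 9.46) and Tnnt2 on array 4 (11.85, the others 11.37 to 11.41). In KO lungs they were Acacb on array 4 (9.27), H60b on array 1 (6.73), Il23r on array 2 (8.40), Lbp on array 2 (12.56), Pigp on array 3 (10.89) and Trim12a on array 1 (6.86).

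The genotype difference changed between saline and HDM (limma's interaction term, HDM minus saline) for 12 named genes. It was 3.90 for Rnase2a (adjusted p = 0.0182), 1.74 for Hspa1a (0.00775) and 1.34 for G530011O06Rik (0.01005). It was -1.49 for Orm1 (0.0247), -1.29 for Clca3b (0.0481), -1.03 for Fam107a (0.00988), -0.90 for Abhd12b (0.0207) and -0.67 for Mfsd2a (0.0398). It was -0.66 for Msln (0.00371), -0.59 for Sftpd (0.0320), -0.54 for Lamp3 (0.0173) and -0.49 for Noxa1 (0.0207). Orm1, Sftpd and Lamp3 were not called under saline.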

How the results depend on the processing

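All 46 genes kept the sign of their difference under each alternative in which they were tested, but the number of calls depended on the setting. Where arrays were only left out, groups without overlap fixed that sign in advance. The count of saline calls was 47 with quantile normalization, 44 with equal medians, 42 with a variance trend, 46 with means of probe sets and 36 among genes above the 25th percentile. It was 19 among genes above the 50th percentile, 110 with array weights, 98 (47 higher, 51 lower) from the 8 saline arrays alone, 12 at an adjusted p under 0.01, and 0 against a minimum fold of 1.2 in limma's treat test, where 101 had an unadjusted p under 0.05. It was 10 without WT saline 2 and 3, and 2 without KO saline 3 and 4, a pair chosen after seeing the data. With any 1 array left out it ran from 14 to 55, and Vldlr from -0.79 to -0.71. Calls shared with HDM (20) became 8, 42, 7, 0, 8 and 1 above the 50th percentile, with weights, without WT saline 2 and 3, with the minimum fold, at 0.01 and without KO saline 3 and 4, and ran from 8 to 26 with 1 array left out. Called list genes (4) became 12 with weights, 13 from the 8 arrays, 0 with the minimum fold and 1 without KO saline 3 and 4, and ran from 3 to 12 with 1 array left out. HDM calls (2327) became 390 from their 8 arrays, 35 with the minimum fold and 627 at 0.01, and ran from 968 (without KO HDM 1) to 3831 (without KO HDM 4). Interaction calls (160) became 680 with weights, 12 without WT saline 2 and 3, 1 with the minimum fold and 14 at 0.01, and ran from 41 (without WT saline 3) to 1019 (without KO HDM 4). Vldlr differed by -0.76 against the minimum fold (adjusted p = 0.482), -0.81 without WT saline 2 and 3 (0.0551) and -0.77 without KO saline 3 and 4 (0.135). Some uncalled values changed sign: without WT saline 2 and 3, Clca1 became 0.1556, Lrp1 -9e-04 and Lrp8 0.0264. With 1 array left out, Lrp1 ran from -0.0094 (without WT saline 1, and -0.0027 without KO saline 4) to 0.0852, Apoe from -0.0051 (without WT saline 1) to 0.1435 and Prg2 from -0.0221 (without WT saline 1) to 0.1159. Apart from the settings with fewer arrays or genes, the cause was not tested.

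Whether arrays of the same replicate number share a batch is not labelled. Deviations of same-numbered saline arrays correlated at 0.004, 0.0385, -0.1088 and 0.3333, and only replicate 4 matched its own number best. On principal component 2 (22.4% of the variance), however, arrays 3 and 4 lay below arrays 1 and 2 in both genotypes. Arrays 1 to 4 lay at 6.18, 2.08, -6.66 and -12.76 in WT and 9.41, 9.97, -1.03 and -7.2 in KO lungs. What sets these arrays apart was not tested. With the replicate number as a block there were 52 saline calls (24 higher, 28 lower), with 42 of the 46 remaining, and 258 interaction calls, while Vldlr had an adjusted p of 0.0170.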
